A study of Mus musculus with 4 samples.

Results

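*Sfrp1*, *Sfrp2*, *Sfrp4*, *Frzb*, *Sost*, *Wnt16*, *Dkk3* and *Rspo3* encode secreted proteins that start, block or strengthen Wnt signalling. The 8 genes were taken by name from the 34469 genes listed across 4 single-cell RNA-sequencing (scRNA-seq) libraries of vascular smooth muscle cells (VSMCs), and all 8 were present in every library. They were chosen with earlier results of these data known, so counts of them beside the share of all genes are descriptions. For each gene, the cell states that carried it were described first, followed by its level in VSMCs with and without Trf2T188A, a phosphorylation-site mutant of the telomere-binding protein TRF2. All mice had a C57Bl/6 background and were male. The first pair of libraries came from atherosclerotic plaques dissected from the aortic root, aortic arch and carotid arteries of ApoE-/- and Trf2T188A/ApoE-/- mice. Both of these groups lacked ApoE and carried Myh11-CreERt2, a tamoxifen-inducible recombinase driven in smooth muscle, and the Confetti fluorescent reporter. They received tamoxifen at 6 weeks of age and 14 weeks of high fat diet. The plaque files hold the cells of those clusters that the authors kept for their Confetti expression. The paper set a lower minimum of genes per cell for Trf2T188A/ApoE-/- than for ApoE-/-. The fewest genes in a kept cell were 1056 in Trf2T188A/ApoE-/- and 1531 in ApoE-/-. This limit goes with genotype in every plaque comparison. The second pair came from the carotid arteries of wild type littermate controls and SM22a-TRF2T188A mice, aged 4 to 5 months, 28 days after ligation, with the adventitia removed. In both models the minimal promoter of Sm22a (Tagln), a smooth muscle gene, drives the transgene. How many mice went into a library is not given in the sources used here. Each genotype had 1 library per experiment, so no difference between genotypes was tested. Every interval given covers counting error only.

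Wnt ligands bind a frizzled receptor together with the co-receptors LRP5 or LRP6, which stabilises beta-catenin and switches on target genes through TCF/LEF factors. Secreted frizzled-related proteins (*Sfrp1*, *Sfrp2*, *Sfrp4* and *Frzb*, also called Sfrp3) carry a frizzled-like domain and bind the ligands themselves. Sclerostin, the product of *Sost*, binds LRP5 and LRP6 and is best known as an inhibitor of bone formation, and it is also made by VSMCs. *Dkk3* belongs to the dickkopf family, whose other members block LRP5 and LRP6, but its own role in the pathway is less settled. *Wnt16* is a ligand. *Rspo3* is an R-spondin, which binds LGR receptors and protects frizzled receptors from the ubiquitin ligases ZNRF3 and RNF43.

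On the GRCm38 assembly, *Sfrp1* lies on chromosome 8 (23411502 to 23449632, plus strand), *Sfrp2* on chromosome 3 (83766321 to 83774316, plus), *Sfrp4* on chromosome 13 (19623104 to 19632994, plus) and *Frzb* on chromosome 2 (80411970 to 80447625, minus). *Sost* lies on chromosome 11 (101962458 to 101967015, minus), *Wnt16* on chromosome 6 (22288227 to 22298522, plus), *Dkk3* on chromosome 7 (112116017 to 112159057, minus) and *Rspo3* on chromosome 10 (29452416 to 29535867, minus). The 8 genes are thus on 8 chromosomes. The RefSeq promoter table (GRCm38.p6) held 4 of them. The 250 bases before the start of *Sfrp2*, *Sost* and *Wnt16* are shown, because these stretches do not overlap annotated exons of their genes. *Sfrp2* and *Sost* were both highest in 1 plaque state, and *Sfrp2* and *Wnt16* were both higher in 1 ligation state of Trf2T188A cells. Capitals mark the CCAAT box, written CCAAT on the gene's strand and ATTGG where it lies on the other strand. The sequences run from 5′ to 3′ on the strand of each gene.
*Sfrp2*, chr3:83766071-83766320, plus strand: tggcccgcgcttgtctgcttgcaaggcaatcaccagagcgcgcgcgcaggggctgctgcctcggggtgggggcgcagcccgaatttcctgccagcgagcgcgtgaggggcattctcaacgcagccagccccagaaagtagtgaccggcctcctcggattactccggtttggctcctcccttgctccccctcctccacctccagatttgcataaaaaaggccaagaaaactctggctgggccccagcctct
*Sost*, chr11:101967016-101967265, minus strand: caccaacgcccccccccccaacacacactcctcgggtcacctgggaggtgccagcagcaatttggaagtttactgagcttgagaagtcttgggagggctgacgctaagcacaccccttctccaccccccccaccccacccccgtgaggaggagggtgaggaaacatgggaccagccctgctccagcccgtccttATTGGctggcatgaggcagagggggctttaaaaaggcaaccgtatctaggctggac
*Wnt16*, chr6:22287977-22288226, plus strand: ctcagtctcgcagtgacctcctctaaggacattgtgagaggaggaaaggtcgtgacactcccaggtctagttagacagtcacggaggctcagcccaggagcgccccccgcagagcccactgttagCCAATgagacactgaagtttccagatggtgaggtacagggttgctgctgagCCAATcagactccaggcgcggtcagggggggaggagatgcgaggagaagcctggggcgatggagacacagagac
The *Sfrp2* stretch, at 63.6% G or C, held no CCAAT box. The *Sost* stretch (61.2%) held 1, 56 bases before the start, and the *Wnt16* stretch (59.2%) held 2, 125 and 74 bases before it. Of 32536 promoters of this length, 33.8% held a CCAAT box on either strand. None of these 3 stretches, nor that of *Frzb*, matched the TCF/LEF core (CTTTG followed by AA, AT, TA or TT, found in 14.9% of promoters), the RUNX core TGTGGT (14%) or the CArG box (1.48%). The *Frzb* stretch is not shown because 229 of its 250 bases lie in annotated exons of the gene. Its lack of a match therefore says little about the bases upstream of *Frzb*. No match means only that these letters are not in this window.

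The plaque libraries held 1502 (ApoE-/-) and 929 (Trf2T188A/ApoE-/-) cells with medians of 22765.5 and 24377 unique molecular identifiers (UMIs) per cell, and the ligation libraries 4967 (control) and 5392 (Trf2T188A) cells with medians of 8631 and 11153. A UMI marks 1 captured RNA molecule. A reporter UMI was found in 83.6% and 85.4% of plaque cells. *Terf2*, which encodes TRF2, was at 0.189 UMIs per 10000 in ApoE-/- and 0.18 in Trf2T188A/ApoE-/- cells, and at 0.18 in ligation control and 0.164 in Trf2T188A cells. It was thus not higher in either Trf2T188A library. Whether transgene RNA is counted as *Terf2* is not given in the sources used here, so this level does not check the labels. Cells were clustered without the members and the other Wnt pathway genes among the variable genes, and clusters were named from marker lists. Plaque cells fell into contractile-like (clusters 0 and 4), Itih4 Fgl2-like, fibromyocyte-like, complement-high, chondrocyte-like, Adamtsl1 Mdga2-like and Pln Sncg Notch3-like cells, an adventitial fibroblast-like cluster (cluster 10) and 3 unnamed clusters (2, 6 and 11). Cluster 2 held contractile genes but was led by Sparcl1 and Atf3, and cluster 6, led by Ifrd1, Dmd and Nav2, had the fewest UMIs per cell (medians of 9943 and 7768). Ligation cells fell into contractile-like, remodelling-like, de-differentiated-like, interferon-responding, endothelial-like and myeloid-like cells. Levels are mean UMIs per 10000 UMIs of a cell, and were compared between clusters or genotypes, never between genes.

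The states differed in which members they carried. A member was counted as higher or lower in a plaque state when its log2 ratio over contractile-like cells, with 1 added to both levels, passed 0.25 in both libraries. In complement-high cells, which express acute-phase and complement genes, 6 of 8 members were higher (*Sfrp1*, *Sfrp2*, *Sfrp4*, *Frzb*, *Dkk3* and *Rspo3*), where 6.81% of all detected genes were, and *Sost* and *Wnt16* were lower (6.14% of genes). Fibromyocyte-like cells, which express matrix genes beside Timp1 and Lum, had 4 higher members (*Sfrp2*, *Sfrp4*, *Frzb* and *Dkk3*, against 6.41% of genes), and again *Sost* and *Wnt16* lower (6.93%). In chondrocyte-like cells only *Frzb* was higher (7.19% of genes) and 3 members were lower, *Sfrp2*, *Sost* and *Wnt16* (13.5%). The Adamtsl1 Mdga2-like cells had 4 higher members, *Sfrp2*, *Sfrp4*, *Frzb* and *Sost* (4.91%), and 1 lower, *Wnt16* (3.12%). In Itih4 Fgl2-like cells *Sfrp2*, *Frzb* and *Wnt16* were higher (2.34%) and *Sost* was lower (1.36%). The Pln Sncg Notch3-like cells had no higher member (2.64% of genes) and 4 lower ones, *Sfrp2*, *Sost*, *Wnt16* and *Dkk3* (2.16%).

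After ligation, the same measure gave 4 higher members in de-differentiated-like cells, which express Lum, Gdf10 and Dcn. They were *Sfrp2*, *Sfrp4*, *Frzb* and *Rspo3* (3.82% of genes), with *Dkk3* lower (4.11%). Remodelling-like cells, led by Igfbp2 and Eln, had *Sfrp2* higher (1.77%) and *Dkk3* and *Rspo3* lower (1.71%). In interferon-responding cells *Sfrp2* was higher (1.98%) and none was lower (0.435%). Endothelial-like cells had *Sfrp1* higher (11.2%) and 6 members lower, all but *Sfrp1* and *Sfrp4* (10.4%). Thus *Sfrp2* was above contractile-like cells in the 3 other VSMC states of the ligated carotid and in 4 plaque states. These comparisons rest on 2 libraries per experiment that were clustered together, and no test was made. Because the members were chosen with earlier results known, the shares of all genes beside them are no test either.

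*Sfrp2* stood at a level of its own in most plaque states. In ApoE-/- cells it was highest in the Adamtsl1 Mdga2-like cells (13.8, 95% interval 13.1 to 14.5) and in cluster 11 (13.7, 12.4 to 15.1), whose intervals overlap. Complement-high cells followed at 9.12 (8.78 to 9.46), fibromyocyte-like cells at 6.55 (6.35 to 6.77), Itih4 Fgl2-like cells at 3.83 (3.68 to 3.99) and contractile-like cells at 1.48 (1.4 to 1.55). Chondrocyte-like (0.145), adventitial fibroblast-like (0.122) and Pln Sncg Notch3-like cells (0.296) were lowest, and their intervals overlap. The order of the classes was the same in Trf2T188A/ApoE-/- cells, from 27.2 (26.4 to 28.2) in Adamtsl1 Mdga2-like through 12.7 in complement-high to 0.147 in chondrocyte-like cells. After ligation, *Sfrp2* ran from 2.21 (control) and 2.16 (Trf2T188A) in contractile-like cells through 4.52 and 7.03 in remodelling-like cells to 10.4 and 13.5 in de-differentiated-like cells. Endothelial-like cells held 0.134 and 0.428. Their share of cells with an *Sfrp2* UMI, 4.84% and 20%, stood against 89.6% and 92.6% of de-differentiated-like cells.

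**Figure D1:**
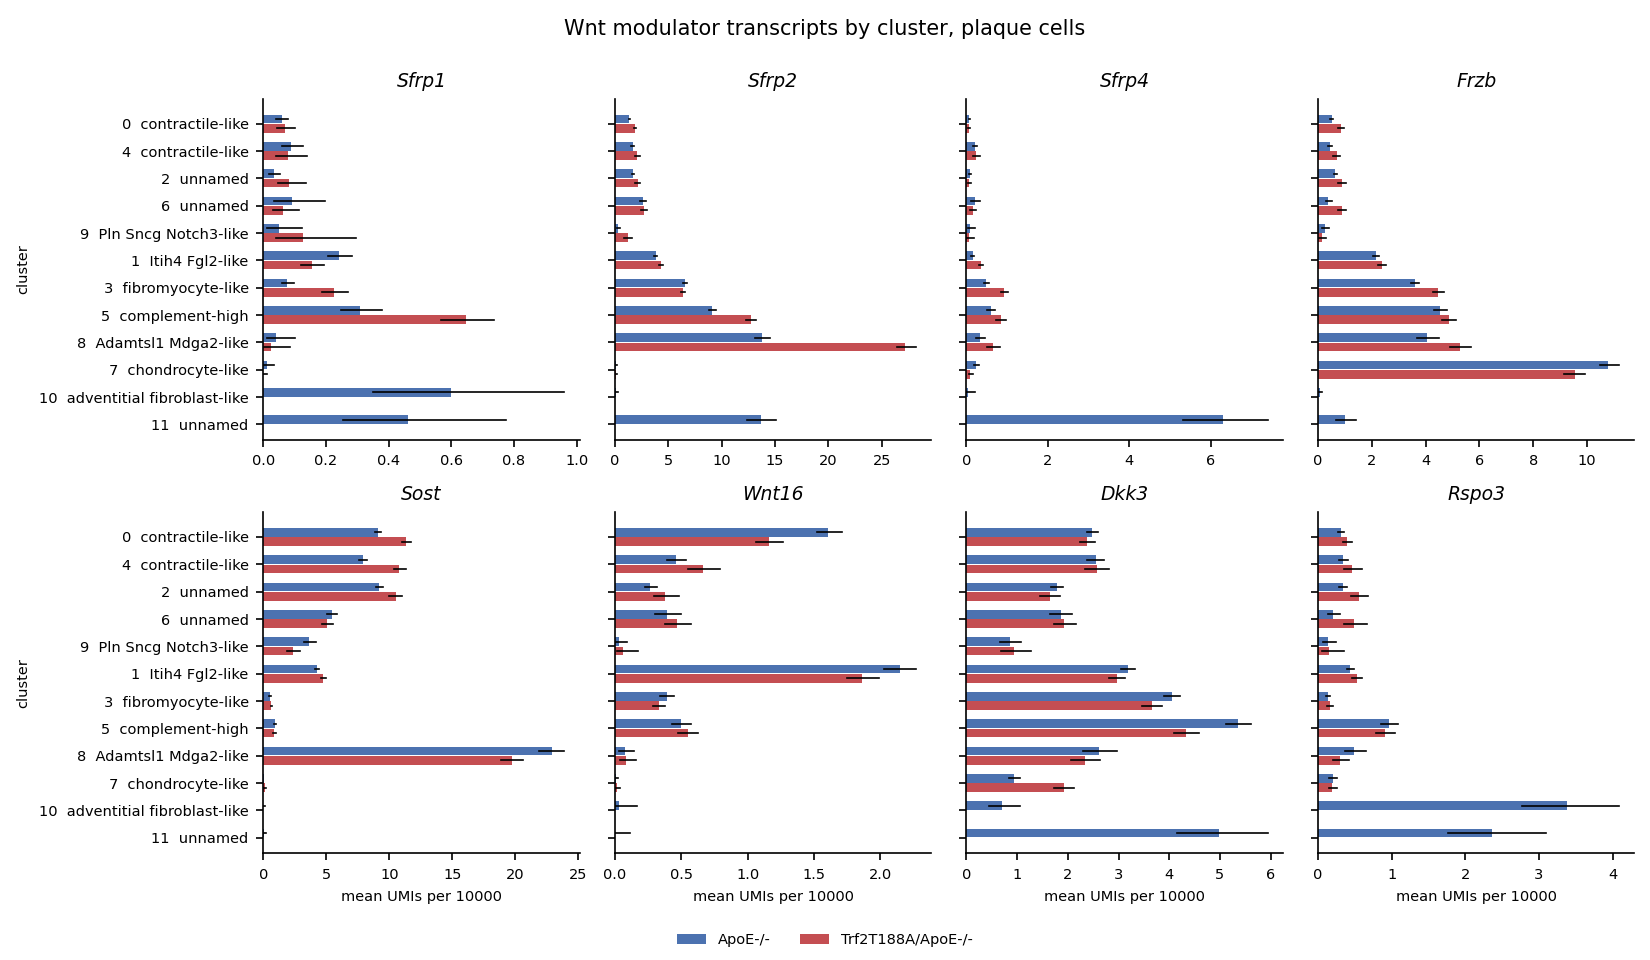
Level of each of the 8 genes in every plaque cluster, as mean UMIs per 10000 on the horizontal axis, with a scale of its own for each gene. Bars are the ApoE-/- (blue) and Trf2T188A/ApoE-/- (red) libraries and black lines 95% Poisson intervals; red bars are not drawn for clusters 10 (1 cell) and 11 (0 cells). *Sost* and *Sfrp2* peak in Adamtsl1 Mdga2-like cells, at 22.9 and 13.8 in ApoE-/-, and *Frzb* in chondrocyte-like cells, at 10.8.

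The genotypes differed most in *Sfrp2* among the plaque measurements. In Adamtsl1 Mdga2-like cells its mean was 13.8 in ApoE-/- (42 cells) and 27.2 in Trf2T188A/ApoE-/- (40 cells), a log2 ratio with 1 added to both of 0.94 (95% interval 0.84 to 1.03). The cell medians were 6.366 and 14.68, and the 5 highest cells held 48.48% and 44.56% of the summed level, so single cells weighed alike in both libraries. The ratio passed 0.25 under all 10 alternatives, from 0.75 to 1.03. Of the genes detected in these cells, 0.0887% had a larger ratio. In these cells the summed level of the state's own markers was 58.2 and 44.4, and that of complement genes 8.48 and 17.2. Their part in the result was not tested.

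Smaller differences of *Sfrp2* pointed the same way in most other plaque states. It was past 0.25 in complement-high cells (9.12 and 12.7, log2 ratio 0.44, 0.37 to 0.52) and in contractile-like cells (1.48 and 1.95, 0.25, 0.17 to 0.34), the latter in only 5 of 10 alternatives. In Pln Sncg Notch3-like cells, at 43 and 23 cells, it was 0.296 (0.181 to 0.458) and 1.21 (0.879 to 1.61), a log2 ratio of 0.77 (0.48 to 1.05). The share of these cells with a UMI was 20.9% (10 to 36) and 60.9% (38.5 to 80.3), or 15.8% and 36.4% once every cell was thinned to 8000 UMIs. Chondrocyte-like cells, whose level was 0.145 and 0.147, had a share of 18.5% and 17.5%. Fibromyocyte-like cells (6.55 and 6.36, log2 ratio -0.04) and Itih4 Fgl2-like cells (3.83 and 4.34, 0.15) did not pass. Over all plaque cells the means were 3.38 and 5.03, a log2 ratio of 0.46 (0.43 to 0.49), which was 0.21 as a difference of mean log2 values. The libraries also differed in their states. Contractile-like cells made up 32.4% of ApoE-/- and 26.4% of Trf2T188A/ApoE-/-, complement-high cells 7.32% and 9.04%, and Adamtsl1 Mdga2-like cells 2.8% and 4.31%. The part of these shares in the all-cell ratio was not tested.

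In the ligated carotid, the difference in *Sfrp2* lay in the states away from contractile-like cells. Remodelling-like cells held 4.52 (4.43 to 4.61) in controls and 7.03 (6.93 to 7.14) in Trf2T188A, a log2 ratio of 0.54 (0.51 to 0.57), with cell medians of 2.044 and 3.81. In these cells de-differentiated markers summed to 3.92 and 7.74 and remodelling markers to 106 and 161, and their part in the result was not tested. The share with a UMI was 71.4% and 84.3%, and 61.8% and 72.5% at 5000 UMIs per cell. De-differentiated-like cells held 10.4 and 13.5 (0.35, 0.31 to 0.38), whereas contractile-like cells held 2.21 and 2.16 (-0.03). In the de-differentiated-like cells the ratio was -0.01 at the lower clustering resolution of 0.1, where they joined the contractile-like cells in 1 cluster. Interferon-responding cells differed in the other direction, at 5.34 (4.97 to 5.73) and 4.2 (3.82 to 4.61), with a log2 ratio of -0.28 (-0.43 to -0.14), which was past 0.25 in 6 of 9 alternatives and -0.09 at the least. In endothelial-like cells (0.33, 0.2 to 0.46) the 5 highest cells held 100% and 66.92% of the sum, so that value rests on a few cells. It was past 0.25 in 6 of 9 alternatives, and myeloid-like cells held 0.107 and 1.13.

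An antisense gene, Gm26771, overlaps *Sfrp2*, and the strand setting of the counting is not given in the sources used here. Gm26771 followed *Sfrp2* over plaque clusters (Pearson r 0.96 over 21 clusters by library), and was at 2.727 and 3.447 in Adamtsl1 Mdga2-like cells and 0.3698 and 0.5971 in remodelling-like cells. Reads of the pair cannot be told apart without strand.

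*Sfrp4* was low in plaque VSMCs and highest there in complement-high and fibromyocyte-like cells. In ApoE-/- it was at 0.598 (0.51 to 0.696) in complement-high and 0.486 (0.434 to 0.543) in fibromyocyte-like cells, with overlapping intervals, and at 0.122 in contractile-like cells. Only the 14 cells of cluster 11, led by Igfbp3 and Gpx3, were much higher, at 6.3 (5.32 to 7.4), with a UMI in 78.6% of them. Just 7.14% of the cells of cluster 11 held a reporter UMI, all came from ApoE-/-, and their best-matching list was that of adventitial fibroblasts. Between genotypes, *Sfrp4* was past 0.25 in fibromyocyte-like cells (0.486 and 0.935, log2 ratio 0.38, 0.28 to 0.49), where 47.9% and 48.5% of cells had a UMI. That ratio passed in 9 of 10 alternatives, being 0.18 as a difference of mean log2 values. *Sfrp4* was also past 0.25 in Adamtsl1 Mdga2-like cells (0.336 and 0.659, 0.31, 0.12 to 0.5), in 8 of 10 alternatives, from 0.18 to 0.8. There the 5 highest cells held 62.87% and 67.39% of the sum, so the value rests on few cells. The fibromyocyte-like shares were alike while the means were not.

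After ligation, *Sfrp4* was highest in de-differentiated-like cells, as *Sfrp2* was. In no other class was *Sfrp4* past 0.25 over contractile-like cells in both libraries, with 1 added to both levels. In remodelling-like cells that ratio was 0.11 in controls and 0.45 in Trf2T188A. Adding 1 narrows ratios at levels this low. De-differentiated-like cells held 0.653 in controls and 1.07 in Trf2T188A (log2 ratio 0.33, 0.26 to 0.39), and remodelling-like cells 0.199 and 0.481 (0.3, 0.26 to 0.35). The latter passed in 7 of 9 alternatives, from 0.16 to 0.96. The shares with a UMI, thinned to 5000 UMIs per cell, were 23.7% and 35.2% in de-differentiated-like and 8.66% and 15.9% in remodelling-like cells. Contractile-like cells were at 0.113 and 0.0877, with fewer than 10% of cells positive, which was below the limit set for a comparison. Endothelial-like cells of the control had no *Sfrp4* UMI, which allows a level of up to 0.0374. At the lower clustering resolution the ratio in de-differentiated-like cells was 0.05.

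*Sfrp1* in the ligated carotid was a gene of endothelial-like cells. Endothelial-like cells of the ligated carotid held 9.67 (8.98 to 10.4) in controls (62 cells) and 3.59 (3.27 to 3.94) in Trf2T188A (65 cells), and no other ligation class had 10% of its cells positive. The log2 ratio of -1.22 (-1.38 to -1.05) was the largest genotype difference of any member, and 0.0633% of detected genes had a larger one. The cell medians were 5.433 and 1.596, and the 5 highest cells held 30.86% and 42.88% of the sum. The share of cells with a UMI hardly separated the libraries, at 83.9% (72.3 to 92) and 78.5% (66.5 to 87.7), or 73.7% and 64.1% thinned. The ratio stayed between -1.41 and -0.94 under 9 alternatives. In the same cells the summed endothelial markers were at 53.4 and 48.9, interferon genes at 21.9 and 6.68, and remodelling genes at 7.18 and 14. Their part in the result was not tested.

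In plaques, *Sfrp1* was highest in the 21 adventitial fibroblast-like cells of ApoE-/- (0.6, 0.35 to 0.961), of which 38.1% held a reporter UMI, and the interval of cluster 11 (0.463, 0.253 to 0.776) overlaps theirs. Complement-high cells were at 0.308 (0.248 to 0.378) in ApoE-/- and 0.648 (0.568 to 0.736) in Trf2T188A/ApoE-/-, and in ApoE-/- their interval overlaps that of Itih4 Fgl2-like cells (0.241, 0.205 to 0.283). That log2 ratio of 0.33 (0.22 to 0.44) rests on few cells: the 5 highest held 51.6% and 88.02% of the sum, and the share with a UMI was 27.3% and 20.2%. As a difference of mean log2 values it was 0.02.

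*Frzb* marked the chondrocyte-like state, the cells with cartilage genes such as Col2a1 and Cytl1. It was at 10.8 (10.5 to 11.2) in ApoE-/- and 9.54 (9.16 to 9.94) in Trf2T188A/ApoE-/-, with a UMI in 100% and 96.8% of these cells, against 47.1% and 51.4% of contractile-like cells. Complement-high (4.55), Adamtsl1 Mdga2-like (4.07) and fibromyocyte-like cells (3.6) came next in ApoE-/-, and the interval of each overlaps that of its neighbour. Contractile-like cells held 0.484 (0.442 to 0.527), Pln Sncg Notch3-like cells 0.265 and adventitial fibroblast-like cells 0.076. Chondrocyte-like cells thus had the most *Frzb* and, among the VSMC states, the least *Sost*, but Adamtsl1 Mdga2-like cells were high in both genes. Over single ApoE-/- cells thinned to 8000 UMIs the Spearman correlation of the pair was -0.38 and in Trf2T188A/ApoE-/- -0.37 (1410 and 807 cells of 1 library each). After ligation it was -0.04 and -0.07.

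Between genotypes *Frzb* was higher in Trf2T188A/ApoE-/- cells in several states but not in chondrocyte-like cells. It was past 0.25 in contractile-like cells (0.484 and 0.8, log2 ratio 0.28, 0.17 to 0.39), Adamtsl1 Mdga2-like cells (4.07 and 5.28, 0.31, 0.13 to 0.49) and cluster 6 (0.39 and 0.881, 0.44, 0.24 to 0.63). The contractile-like value was past it in only 4 of 10 alternatives, from 0.1 to 0.62. In chondrocyte-like cells the log2 ratio was -0.17 (-0.26 to -0.07). In those cells the summed chondrocyte markers were at 706 and 335, and their part in the result was not tested. After ligation *Frzb* was highest in de-differentiated-like cells (1.33 and 1.71, 0.22) and past 0.25 in remodelling-like cells (0.462 and 0.776, 0.28, 0.24 to 0.33). That ratio passed in 7 of 9 alternatives, from 0.12 to 0.64.

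*Sost* was high in contractile-like VSMCs of both experiments, and its highest plaque level was in Adamtsl1 Mdga2-like cells. In ApoE-/- it was at 22.9 (21.9 to 23.9) in Adamtsl1 Mdga2-like cells, 9.21 in cluster 2, 8.69 (8.51 to 8.86) in contractile-like, 5.42 in cluster 6, 4.24 in Itih4 Fgl2-like and 3.66 in Pln Sncg Notch3-like cells, and the last pair overlap. It was at 0.938 in complement-high, 0.546 in fibromyocyte-like and 0.0427 in chondrocyte-like cells. None of the 21 adventitial fibroblast-like cells held a *Sost* UMI. By 3 counts, that allows a share of cells with a UMI, not of cells expressing the gene, of up to 14.3%. The shares with a UMI were 96.5% and 93.1% in contractile-like cells, 28.5% and 15.2% in fibromyocyte-like cells and 7.41% and 12.7% in chondrocyte-like cells. *Sost* was thus low in complement-high and fibromyocyte-like cells, where *Sfrp2* and *Frzb* were high, but the Adamtsl1 Mdga2-like cells had the highest *Sost* and the highest *Sfrp2*.

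Trf2T188A cells of the contractile-like state had more *Sost* in both experiments. In plaques it was 8.69 in ApoE-/- and 11.2 (10.9 to 11.5) in Trf2T188A/ApoE-/-, a log2 ratio of 0.33 (0.28 to 0.38), with 0.28 in cluster 0 and 0.41 in cluster 4. In ligated carotids it was 12.3 (12.2 to 12.5) in controls and 16.9 (16.8 to 17.1) in Trf2T188A, a ratio of 0.43 (0.4 to 0.45), with cell medians of 9.333 and 14.68. Only 0.156% of genes in the ligated contractile-like cells had a larger ratio. The ligation value was past 0.25 under all 8 alternatives, and the plaque value under 8 of 10, being 0.17 without cells of fewer than 2000 genes and 0.24 on mean log2 values. The summed contractile markers of the plaque list, which holds Myh11 and Acta2, were at 492 and 496. The ligation contractile list differs: it holds genes such as Sparcl1 and Tcap but neither Myh11 nor Acta2, and it summed to 19.6 and 20.4. The part of these markers in the result was not tested.

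No other VSMC state had *Sost* past 0.25 in this direction. In the ligated carotid, remodelling-like cells held 15.9 (15.8 to 16.1) in controls and 14.5 (14.4 to 14.7) in Trf2T188A, and de-differentiated-like cells 10.5 and 9.73. The highest class was therefore remodelling-like in controls and contractile-like in Trf2T188A. In plaques, Pln Sncg Notch3-like cells had 3.66 (3.22 to 4.15) in ApoE-/- and 2.37 (1.91 to 2.91) in Trf2T188A/ApoE-/-, a log2 ratio of -0.47 (-0.73 to -0.21), and Adamtsl1 Mdga2-like cells 22.9 and 19.7 (-0.2). Immediate-early genes in the Pln Sncg Notch3-like cells summed to 140 and 84.9, and their part in the result was not tested. Endothelial-like cells had a UMI of *Sost* in 21% and 27.7% of cells (medians of 10410 and 14170 UMIs), as myeloid-like cells did (21.1% and 22.4%). Whether the level of 0.629 and 1.21 in endothelial-like cells is RNA of their own was not tested. No genotype difference is read from it.

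**Figure D2:**
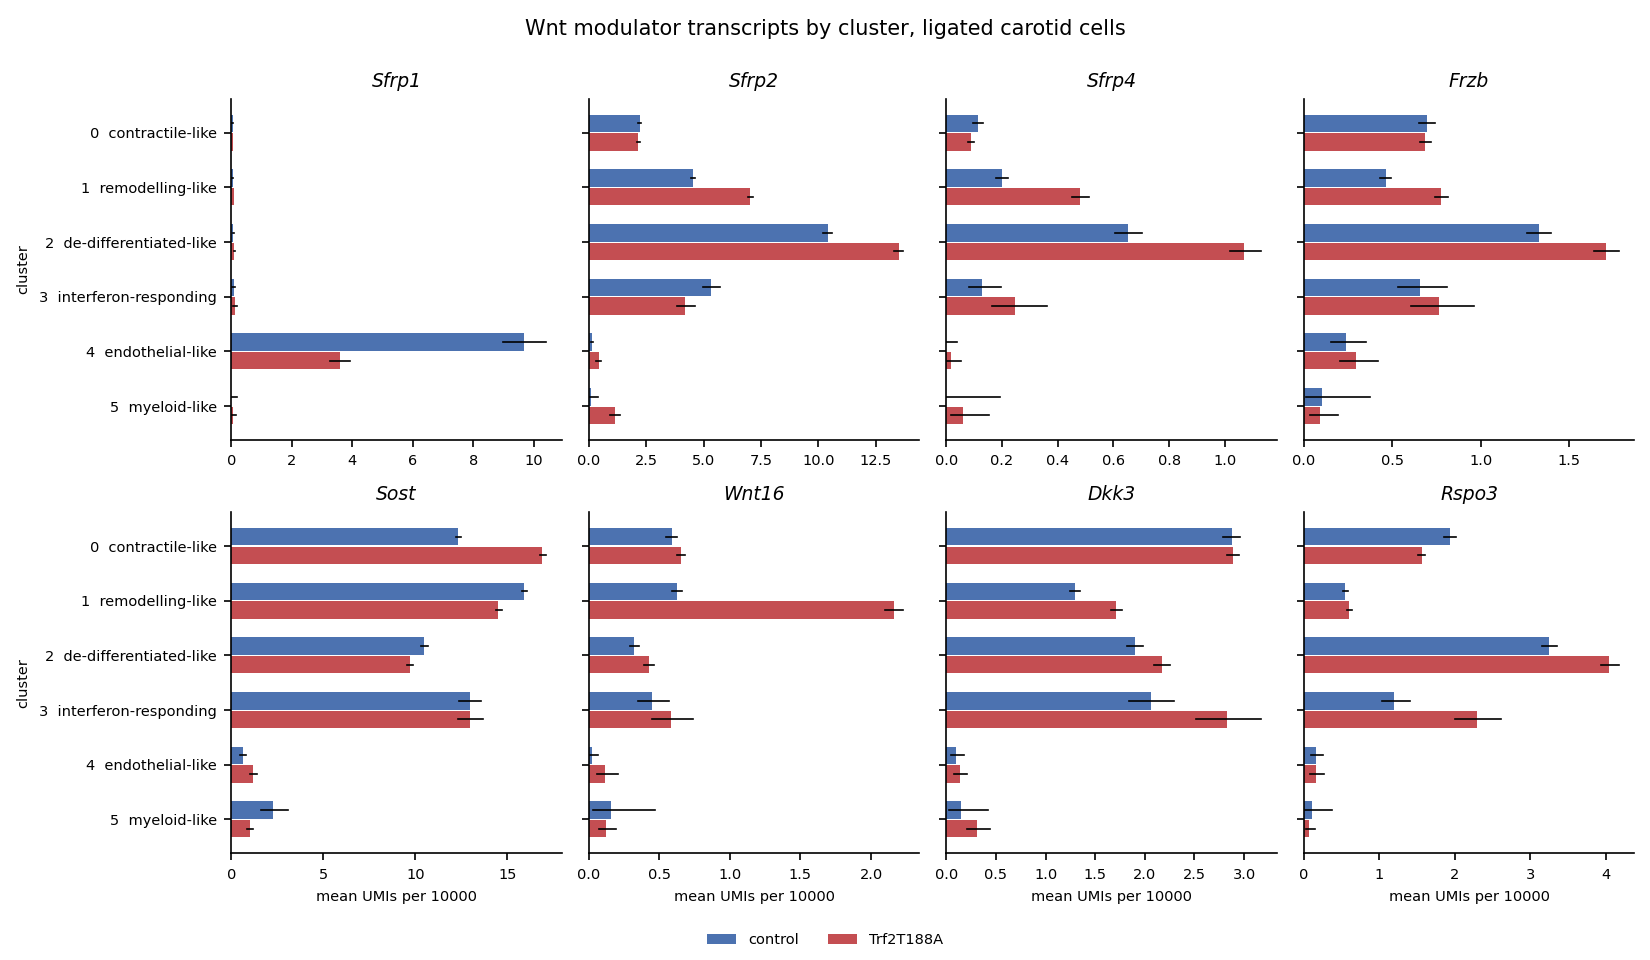
Level of each of the 8 genes in every cluster of the ligated carotid, as mean UMIs per 10000 on the horizontal axis, with a scale of its own for each gene. Bars are the control (blue) and Trf2T188A (red) libraries and black lines 95% Poisson intervals. *Sfrp1* is endothelial (9.67 and 3.59), *Sfrp2* climbs from contractile-like to de-differentiated-like cells, and the *Wnt16* bar of Trf2T188A remodelling-like cells (2.16) stands above all others of that gene.

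*Dkk3* was spread over most plaque VSMC states, with complement-high cells highest (5.36 in ApoE-/- and 4.33 in Trf2T188A/ApoE-/-) and Pln Sncg Notch3-like cells lowest or near it (0.852 and 0.944). Fibromyocyte-like cells held 4.05 and 3.66, Itih4 Fgl2-like cells 3.18 and 2.96, and contractile-like cells 2.5 and 2.43. In ligated carotids the direction was the other way round: contractile-like cells were highest (2.88 and 2.89), above remodelling-like (1.3 and 1.71) and de-differentiated-like cells (1.9 and 2.17). *Dkk3* differed between genotypes past 0.25 in 3 classes, and not in 1 direction. It was higher in Trf2T188A/ApoE-/- chondrocyte-like cells (0.939 and 1.92, log2 ratio 0.59, 0.42 to 0.76), with cell medians of 0.5295 and 0.9215. It was lower in complement-high cells (5.36, 5.11 to 5.62, and 4.33, 4.09 to 4.58, a ratio of -0.25, -0.36 to -0.15), past 0.25 in 6 of 9 alternatives. In interferon-responding cells of the ligated carotid it was 2.06 and 2.83 (0.33, 0.15 to 0.5). In the chondrocyte-like cells complement genes summed to 19.6 and 51 and Itih4 Fgl2 genes to 18.8 and 46.8, beside the lower chondrocyte markers given above, and their part in the result was not tested. With reporter-positive cells alone that ratio was 0.26.

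*Wnt16*, the ligand of the group, was highest in 2 plaque states and lower, but present, in others. Itih4 Fgl2-like cells were highest (2.15, 2.03 to 2.27, in ApoE-/- and 1.86, 1.75 to 1.99, in Trf2T188A/ApoE-/-), with a UMI in 74.3% and 65.9% of cells. Contractile-like cells followed (1.21 and 1.02), and these were not uniform: cluster 0 held 1.61 and 1.16, and cluster 4, led by Mylk4 and Myh11, 0.46 and 0.665. Complement-high (0.497), fibromyocyte-like (0.39) and cluster 6 cells (0.393) overlapped in ApoE-/-, with a UMI in 31.8%, 24.8% and 31.3% of cells. Chondrocyte-like cells (0.0106 and 0.0179) and Pln Sncg Notch3-like cells (0.0313 and 0.0605) were close to 0. The share of chondrocyte-like cells with a UMI was 3.7% and 4.76%. *Wnt16* therefore did not follow *Sost*: the Adamtsl1 Mdga2-like cells, highest in *Sost*, held 0.0745 and 0.0841 of *Wnt16*. The log2 ratio between genotypes was -0.13 in contractile-like and -0.14 in Itih4 Fgl2-like cells, short of 0.25. Within contractile-like cells it was -0.27 (-0.36 to -0.18) in cluster 0 and 0.19 (0.05 to 0.33) in cluster 4.

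In the ligated carotid *Wnt16* set the genotypes apart in a single state. Remodelling-like cells held 0.622 (0.587 to 0.658) in controls (1984 cells) and 2.16 (2.1 to 2.23) in Trf2T188A (1865 cells), a log2 ratio of 0.96 (0.92 to 1.01). The cell medians were 0 and 1.132, and the 5 highest cells held only 3.53% and 2.473% of the sum, so many cells carried it. The share with a UMI was 31.7% (29.6 to 33.8) and 65% (62.8 to 67.2), and 20.2% and 48.7% with every cell thinned to 5000 UMIs. Endothelial-like cells, of similar depth, had shares of 4.84% and 7.69%. Contractile-like cells (0.587 and 0.653), de-differentiated-like cells (0.323 and 0.426) and interferon-responding cells (0.449 and 0.583) had ratios of 0.06, 0.11 and 0.13. These means were also higher in Trf2T188A, and adding 1 to levels below 1 narrows their ratios. In controls the remodelling-like level was close to that of contractile-like cells (a log2 ratio of 0.03), and in Trf2T188A it was above it by 0.94.

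The remodelling-like *Wnt16* ratio was past 0.25 under all 9 alternatives, from 0.7 at the higher clustering resolution of 0.4 to 1.65 with 0.1 added in place of 1. Only 0.0375% of detected genes had a larger ratio in these cells. The summed remodelling markers were also higher in Trf2T188A remodelling-like cells, at 106 and 161, as were those of the de-differentiated list, at 3.92 and 7.74. Adventitial fibroblast markers were at 0.765 and 0.836. The part of these markers in the result was not tested.

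**Figure D3:**
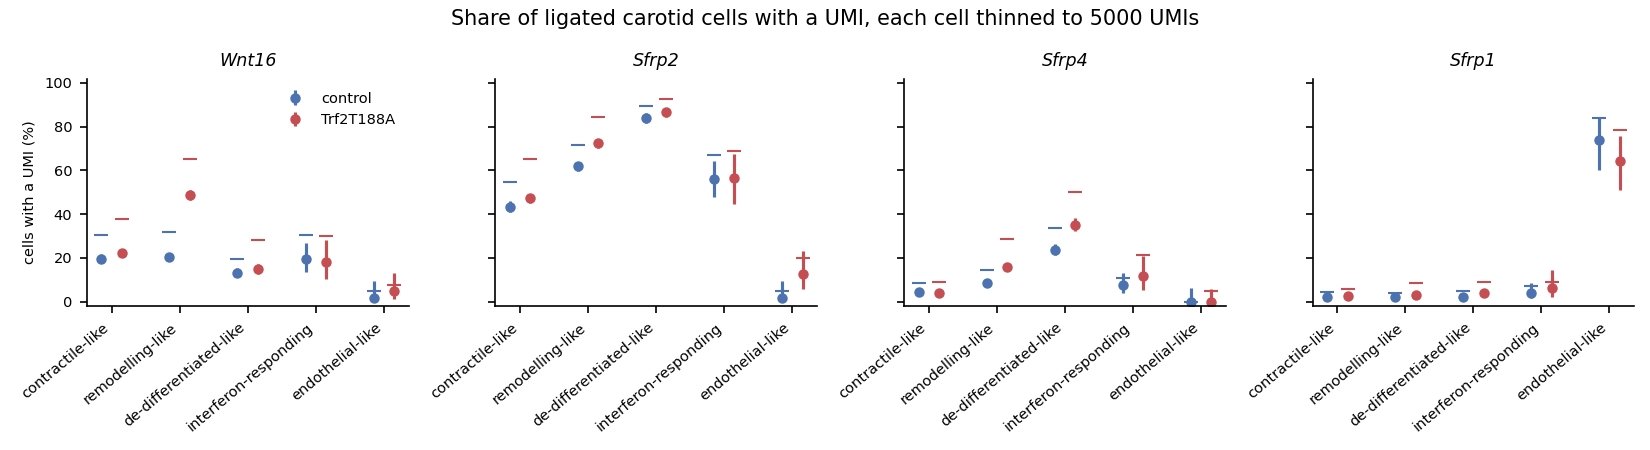
Share of cells with a UMI of *Wnt16*, *Sfrp2*, *Sfrp4* and *Sfrp1* in each ligation class, in percent, for control (blue) and Trf2T188A (red). Dots are shares with every cell thinned to 5000 UMIs, bars exact 95% intervals and short horizontal dashes the shares before thinning. For *Wnt16* in remodelling-like cells the thinned shares are 20.2% and 48.7%.

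*Rspo3*, which strengthens Wnt signalling, was low in plaque VSMCs. In ApoE-/- it was at 3.38 (2.77 to 4.09) in adventitial fibroblast-like cells and 2.36 (1.77 to 3.09) in cluster 11, whose intervals overlap, and both clusters held few reporter-positive cells. Among the VSMC states complement-high cells had 0.967 and 0.912 and contractile-like cells 0.321 and 0.418. Cluster 6 passed 0.25 between genotypes (0.21 and 0.493, log2 ratio 0.3, 0.09 to 0.52), but in only 1 of 4 alternatives. In ligated carotids *Rspo3* was highest in de-differentiated-like cells (3.25, 3.15 to 3.36, in controls and 4.05, 3.94 to 4.17, in Trf2T188A) and lowest among VSMC states in remodelling-like cells (0.545 and 0.602). The de-differentiated-like ratio of 0.25 (0.2 to 0.3) stopped just short of the limit. Interferon-responding cells were past it, at 1.2 (1.03 to 1.4) and 2.29 (2 to 2.61), a ratio of 0.58 (0.38 to 0.77), with thinned shares of 36.5% and 60.3%. These cells, 158 and 80 in number, lay below contractile-like cells in controls (-0.41) and above them in Trf2T188A (0.36). Their interferon genes summed to 59.1 and 50.5 and the genes of the ligation contractile list to 8.38 and 13.8, and the part of these in the result was not tested.

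Counted by class, the members past 0.25 between genotypes were as follows. Over all plaque cells 2 of 8 passed, *Sfrp2* and *Frzb*, against 0.817% of detected genes. All-cell ratios mix states whose shares differed between the libraries, and the part of those shares was not tested. Contractile-like cells had 3 (0.512% of genes), Adamtsl1 Mdga2-like 3 (7.69%), complement-high 3 (2.69%), Pln Sncg Notch3-like 2 (10.2%), cluster 6 2 (9.15%), chondrocyte-like 1 (4.99%) and fibromyocyte-like 1 (2.81%). Itih4 Fgl2-like cells (1.23%) and cluster 2 (1.06%) had none. In the small classes, where many genes passed, the members' counts say less. Over all ligation cells only *Wnt16* passed (0.527 and 1.12, log2 ratio 0.47), against 1.09% of genes. Remodelling-like cells had 4, *Wnt16*, *Sfrp2*, *Sfrp4* and *Frzb*, all higher in Trf2T188A (2.29%). Endothelial-like (7.89%) and interferon-responding cells (4.69%) had 3 each, de-differentiated-like cells 2 (1.7%) and contractile-like cells 1 (0.959%). Of the endothelial-like calls, *Sost* had a share of positive cells like that of myeloid-like cells, and *Sfrp2* rested on a few cells. Over the 7 members detected in at least 10% of cells (all but *Sfrp1*), the median log2 ratio was 0.28 in remodelling-like and 0.22 in de-differentiated-like cells, beside -0.009 and -0.004 over all genes tested there. Over all 8, it was 0.05 in plaque contractile-like cells.

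**Figure D4:**
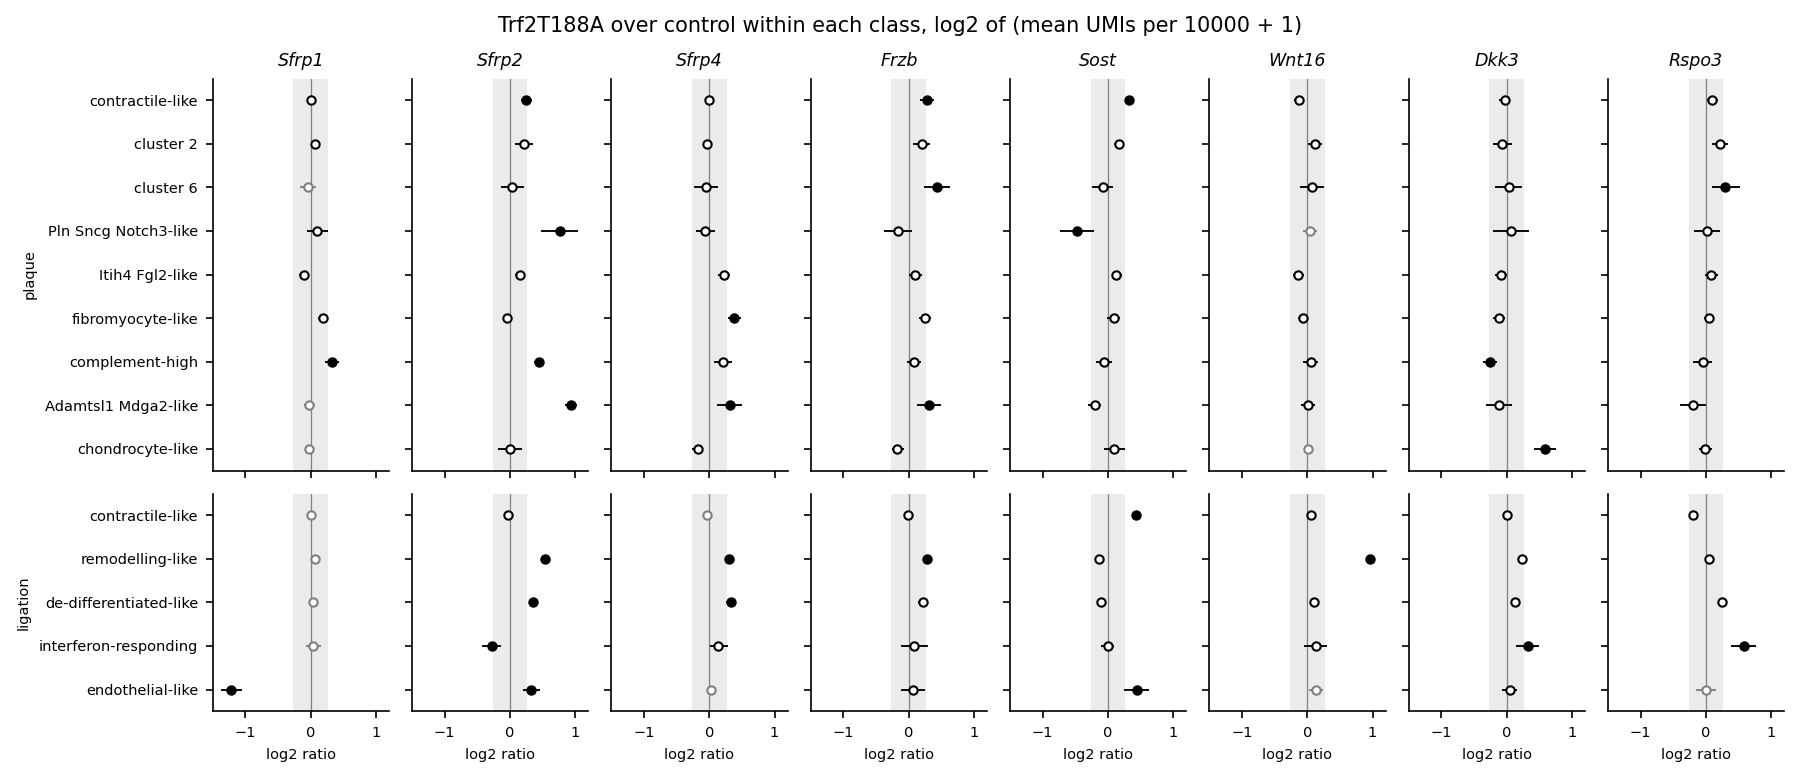
Log2 ratio of each gene between genotypes (Trf2T188A library over its control, 1 added to both levels) on the horizontal axis, by class, for plaque and ligation. Filled points are past 0.25 in either direction, open points are not, grey open points are genes detected in fewer than 10% of cells, the grey band is the range from -0.25 to 0.25 and lines are 95% counting intervals. The points farthest from 0 are *Sfrp1* in endothelial-like cells (-1.22), *Wnt16* in remodelling-like cells (0.96) and *Sfrp2* in Adamtsl1 Mdga2-like cells (0.94).

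The other genes of the pathway differed past 0.25 in some classes only. Of 71 genes listed as further ligands, inhibitors, R-spondins, receptors, intracellular components and beta-catenin targets, 70 were measured in plaque and 64 in ligation. Over all cells 34 were detected in plaque and 26 in ligation, and none of them passed 0.25. With 1 added to both levels, a gene of low level can differ without passing, so this does not show these genes as unchanged. None passed in plaque contractile-like cells (29 detected), ligated contractile-like cells (27) or de-differentiated-like cells (28). In remodelling-like cells 1 of 26 passed, the secreted inhibitor *Wif1* (0.28). *Wif1* was also past it in Itih4 Fgl2-like cells (0.25, 1 of 31) and in Adamtsl1 Mdga2-like cells (0.42), where the co-receptor *Lrp6* (-0.28) and the Wnt receptor *Ror1* (-0.30) were lower (3 of 35 in all). *Ror1* did not go 1 way: it was lower in interferon-responding cells (-0.34, 1 of 28) and higher in cluster 6 (0.47) and cluster 2 (0.25, beside *Wif1* at 0.25, 2 of 28). Cluster 6 also had *Lgr6*, a receptor of R-spondins, higher (0.30) and the receptor *Fzd1* (-0.26) and the intracellular component *Apc* (-0.25) lower, 4 of 28 in all. In chondrocyte-like cells 6 of 33 passed, all lower in Trf2T188A/ApoE-/-, in a class where 4.99% of all genes passed. They were the receptors *Fzd8* (-0.25), *Fzd9* (-0.39), *Ror2* (-0.30) and *Lgr4* (-0.37), and the intracellular components *Gsk3b* (-0.28) and *Tcf7l2* (-0.27). The target *Ccnd1*, a cyclin, was lower in complement-high (-0.34), fibromyocyte-like (-0.26) and endothelial-like cells (-0.39), and *Fzd9* was higher in complement-high cells (0.27). The small Pln Sncg Notch3-like class had the target *Nkd1* higher (0.40) and *Wif1* (-0.33), *Fzd4* (-0.36) and *Ror1* (-0.54) lower, of 29 detected.

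Over the clusters of each library with at least 20 cells (21 in plaque and 11 in ligation), the genes whose log2 levels ran most like each member were as follows. In plaque, *Frzb* ran with P3h3 (Pearson r 0.95), Hexa (0.93) and Bgn (0.93), the last encoding the proteoglycan biglycan. *Sost* ran with Cnn3 (0.96), E030013I19Rik (0.95) and Tub (0.93), *Wnt16* with Aebp1 (0.9), Tnnt2 (0.81) and Gm9951 (0.8), and *Sfrp2*, beside Gm26771, with Fbln5 (0.93), which encodes an elastic fibre protein, and Kcnj15 (0.9). *Sfrp1* ran with Fgf18 (0.91), Psmb8 (0.89) and Ccl19 (0.89), *Sfrp4* with Timp2, 9930111J21Rik2 and Gm44148 (0.85 each), *Dkk3* with Nupr1 (0.91), Nnmt (0.89) and Fstl1 (0.89), and *Rspo3* with Espn (0.91), Rnf122 (0.9) and Rhou (0.87). In ligation, *Sfrp2* ran with the type I collagen genes Col1a1 and Col1a2 (0.99 each) and Lrig1 (0.98), *Sfrp4* with Pcolce (0.96), Col16a1 (0.96) and Itga11 (0.94), and *Frzb* with Bmp2 (0.98), Mxra8 (0.97) and Pdgfrb (0.97). *Sost* ran with Dmpk, Fxyd1 and Nexn (0.99 each), *Wnt16* with Uba2, Fam162a and Cldn3 (0.95 each), *Dkk3* with Coq7, Ryr2 and Gstm5 (0.99 each) and *Rspo3* with Pdzrn4 (0.99), Timp4 (0.98) and Lratd1 (0.98). The r of 1 between *Sfrp1* and Plek2, Igfbp3 and Fam167b rests on the 2 endothelial-like points. Clusters of a library share depth and processing, so these values are descriptions.

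Over single cells most pairs of members had weak correlations, and a few pairs were also related within a state. In plaque the thinned Spearman correlations were 0.18 (ApoE-/-) and 0.2 (Trf2T188A/ApoE-/-) for *Sfrp2* with *Frzb*, and -0.17 in both for *Sfrp4* with *Sost*. Within contractile-like cells, which pool clusters 0 and 4, *Sfrp2* and *Wnt16* were at -0.19 and -0.26 (475 and 216 cells). In ApoE-/- these clusters held 1.61 and 0.46 of *Wnt16* and 1.37 and 1.67 of *Sfrp2*. Their part in the correlation was not tested. Within fibromyocyte-like cells (160 and 118) *Frzb* and *Dkk3* were at 0.23 and 0.45, and *Sost* and *Wnt16* at 0.17 and 0.4. There *Sfrp2* and *Wnt16* were at 0.2 in both libraries, the other direction from contractile-like cells. Only 22 and 11 of these fibromyocyte-like cells held a *Wnt16* UMI. In ligation *Sfrp2* and *Sfrp4* were at 0.15 and 0.26. In counts this sparse, weak values carry little information.

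**Figure D5:**
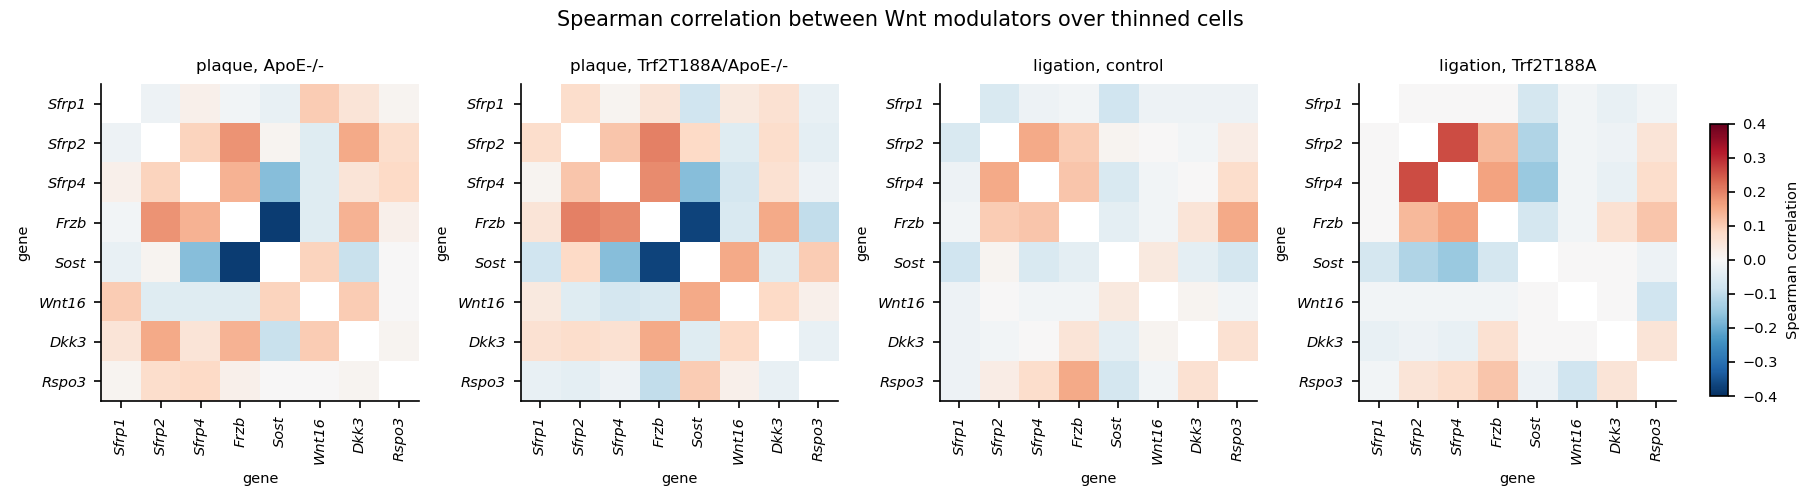
Spearman correlation between each pair of the 8 genes over cells thinned to 1 depth, in each of the 4 libraries, with a colour scale from -0.4 to 0.4 and the diagonal left white. *Frzb* with *Sost* in plaque (-0.38 and -0.37) is the darkest cell below 0.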

How the data were processed

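The 8 members and all gene lists were chosen with earlier results of these data known. Per the submitters' processing notes, ligation reads were processed with Cell Ranger 6.1.2, Seurat 3.2.1 and R 3.6.2 and plaque reads with Cell Ranger 7.0.0, Seurat 4.3.0 and R 4.2.2, on GRCm38. The paper's methods differ, giving Seurat 4.3.0 for each experiment, with R 3.6.2 for plaque and R 4.2.2 for ligation. The deposited values are a normalized signal, in which the authors divided each cell's UMI counts by its total and multiplied by 10000, on a linear scale. Because all cells sum to 10000, whole UMIs were recovered, with 100% of values within 0.01 of a whole number. A count test was not possible with 1 library per group. Genes listed numbered 31765 in plaque and 26391 and 27696 in ligation.

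Cells of an experiment were clustered together with Seurat 5.3.0 (R 4.3.3, Matrix 1.6.5) on 2000 variable genes, with 18 principal components and resolution 0.9 in plaque and 17 and 0.2 in ligation, without integration. Of the Wnt genes left out, 21 in plaque and 15 in ligation would otherwise have been variable genes. A cluster took the name of the marker list with the highest mean log2 ratio (at least 0.5, with at least 3 markers at 0.5 or more), unless another list had more markers among its top 10 genes or the list was the immediate-early one. These naming limits were set after the data were seen. Scrublet (scanpy 1.11.5) called 1 and 2 plaque and 1 and 0 ligation cells, too few to be of use, so the 5% of cells with the highest scores were left out as an alternative. Libraries shared 0 barcodes in plaque and 10 in ligation.

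Levels were means over cells with exact Poisson intervals, shares had exact Clopper-Pearson intervals, counts of 0 were limited by 3 counts, and log2 ratios (1 added to both means) had 95% delta-method intervals. Calls used a ratio past 0.25 among genes in at least 10% of cells of either library, and classes with under 20 cells in a library were not compared. Thinning left out 92 and 122 plaque cells below 8000 UMIs and 325 and 154 ligation cells below 5000. All 8 members were named, other pathway genes as counts with those past 0.25, and the 3 genes most alike by Pearson r of log2(level + 0.1) per experiment. On simulated counts for plaque contractile-like cells (31765 genes) 98.2% of genes changed by a log2 ratio of 0.7 were recovered, and for remodelling-like cells (29459 genes) 95.7%. Only changed genes of a middle range of levels, with an expected ratio past 0.25 after 1 was added, were counted. The simulation held counting error only. These rates therefore do not apply to members at low levels or to differences between libraries. Scripts ran under Python 3.11.15 with pandas 2.3.3, numpy 2.4.6, matplotlib 3.10.9 and scipy 1.17.1.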

Additional observations from a re-analysis of the deposited data

Results flagged for a closer look

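Several members had genotype ratios past 0.25 in opposite directions in different states of an experiment. None of these differences between states was tested, since each genotype had 1 library. In plaques, the log2 ratio of *Sost* was 0.33 in contractile-like and -0.47 in Pln Sncg Notch3-like cells, which are 0.8 apart. That of *Dkk3* was 0.59 in chondrocyte-like and -0.25 in complement-high cells, 0.84 apart. In ligated carotids, the ratio of *Sfrp2* was -0.28 in interferon-responding cells. It was 0.33 in endothelial-like cells (0.61 apart), 0.35 in de-differentiated-like cells (0.63 apart) and 0.54 in remodelling-like cells (0.82 apart). The endothelial-like and interferon-responding values of *Sfrp2* were each past 0.25 in 6 of 9 alternatives (from 0.05 to 1.17 and from -0.55 to -0.09), and the endothelial-like means of 0.134 and 0.428 lie beside 0.107 and 1.13 in myeloid-like cells.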

How the results depend on the processing

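No paired analysis was possible because each genotype had 1 library per experiment, and leaving out a replicate was not possible for the same reason. Of the log2 ratios under the alternatives, 873 moved by less than their counting interval and 229 moved by more. Among the ratios past 0.25, 2 changed sign. They were *Sfrp2* in de-differentiated-like cells (-0.01 at the lower resolution, where those cells merged with contractile-like cells) and *Sost* in endothelial-like cells (-0.1 with the top 5% of Scrublet scores removed). For ratios short of 0.25, changes of sign are not given here. Counts of members past 0.25 changed by over 1.5 times as follows, given as the number of members. At the lower resolution (0.45 in plaque and 0.1 in ligation) they were 1 in Itih4 Fgl2-like, 2 in fibromyocyte-like and 1 in de-differentiated-like cells, and 4 of 8 members kept their highest plaque class, since *Sfrp1*, *Sfrp4*, *Dkk3* and *Rspo3* did not. At the higher resolution (1.8 and 0.4) they were 3 in Itih4 Fgl2-like, 1 in contractile-like plaque, 2 in fibromyocyte-like and 2 in remodelling-like cells. With Wnt genes among the variable genes they were 1 in Itih4 Fgl2-like and 2 in fibromyocyte-like cells. With 0.1 added in place of 1 they were 5 in cluster 2, 2 in Itih4 Fgl2-like, 5 in Pln Sncg Notch3-like, 3 in chondrocyte-like, 3 in fibromyocyte-like, 5 in interferon-responding, 5 in de-differentiated-like, 2 in contractile-like ligation cells and 2 over all ligation cells. As a ratio of summed UMIs they were 1 in cluster 6, 1 in Itih4 Fgl2-like and 3 in fibromyocyte-like cells. As mean log2 values they were 1 over all plaque cells, 0 in cluster 6, 1 in complement-high, 0 in contractile-like plaque and 1 in endothelial-like cells. Thinned, cluster 6 had 1. With those scores removed they were 1 in Itih4 Fgl2-like, 2 in chondrocyte-like, 2 in fibromyocyte-like and 1 in endothelial-like cells. Without cells of fewer than 2000 genes they were 1 in contractile-like plaque and 2 in fibromyocyte-like cells. With reporter cells only they were 3 in Itih4 Fgl2-like, 2 in chondrocyte-like, 1 in contractile-like and 2 in fibromyocyte-like cells. Thinning took 32 shares of cells with a UMI out of their counting interval. The cause of these changes was not tested, apart from the merged clusters.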
